A study of Mus musculus with 2 samples.

Results

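Aldehyde dehydrogenases, alcohol dehydrogenases and aldo-keto reductases were compared between chow-fed and high-fat-fed mice in their epididymal white adipose tissue, a visceral fat depot. The members were all probe sets whose only annotated symbol begins with Aldh, Adh or Akr and a digit. The retinaldehyde-oxidising Aldh1a genes were left out. This gave 65 of the 45037 probe sets on the array, which name 38 of 18193 genes. Each diet is represented by 1 array of male C57BL/6 tissue, with no genetic change named in the labels, which do not say whether animals were pooled. The diets diverged at 9 weeks of age, after regular food, and high-fat feeding lasted 7 weeks. The control sample came from normal chow. Because each diet has 1 array, no test was possible, and every direction given below holds for this pair of samples.

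The 3 families handle reactive carbonyl groups. Aldehyde dehydrogenases oxidise aldehydes to acids, alcohol dehydrogenases interconvert alcohols with aldehydes or ketones, and aldo-keto reductases use NADPH to reduce carbonyls to alcohols. In fat, where stored lipid can be oxidised, substrates include aldehydes released from peroxidised fatty acids, and several aldo-keto reductases also act on steroid hormones. Other aldehyde dehydrogenases are steps of amino acid and folate metabolism.

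A probe set is a group of short probes for 1 transcript. The deposited values are linear probe set intensities, with a median of 41.6 for chow and 40.8 for high fat. The 40th percentile of each array, 28.6 and 27.9, served as a floor: a probe set was measured if either array reached the floor, and lower values were raised to it. The brightest measured probe set stood for its gene. The tissue label was checked against adipocyte markers: 12 of 15 listed genes were analysed here, all lay above the floor on both arrays, and Adipoq, the gene of adiponectin, stood at 8372.1 on chow and 8718.4 on high fat. Probe sets of 1 gene scattered around their mean difference with an SD of 0.32 log2 units, pooled over genes, and of 0.37 for genes under an intensity of 100. This scatter, called probe error here, covers disagreement between probe sets of 1 gene only and not variation between animals. Whether such probe sets detect different transcripts was not tested.

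Most members differed little between the diets, and those that differed most were higher after high-fat feeding. Of the 38 genes 29 were measured. Both arrays placed 25 of these above the floor, and for the other 4 only the high-fat array did. For the 4 the difference is a lower bound, and they could be measured only because they were higher. Among the 25 genes, 12 were higher, against a background of 46.8% of genes, and 13 lower, against 52.9%. The median difference was -0.020 log2 units, against -0.022 over all 12478 genes above the floor on both arrays. Aldh3b2, 1 of the 25, was 2-fold or more higher, against a background of 0.93% of all such genes, and 0 were 2-fold or more lower, against 0.938%. Including it, 4 of the 25 were 1.5-fold or more higher (Aldh3b2, Akr1cl, Akr1d1 and Aldh3b1), where the background was 4.94%. In the opposite direction 0 of the 25 were 1.5-fold or more lower, with a background of 5.31%. With the floor at the 60th percentile Aldh3b2 alone stayed past 1.5-fold. Members with a larger difference were weak: apart from Aldh3b2, no gene past 1.5-fold reached an intensity of 100 on either array.

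**Figure D1:**
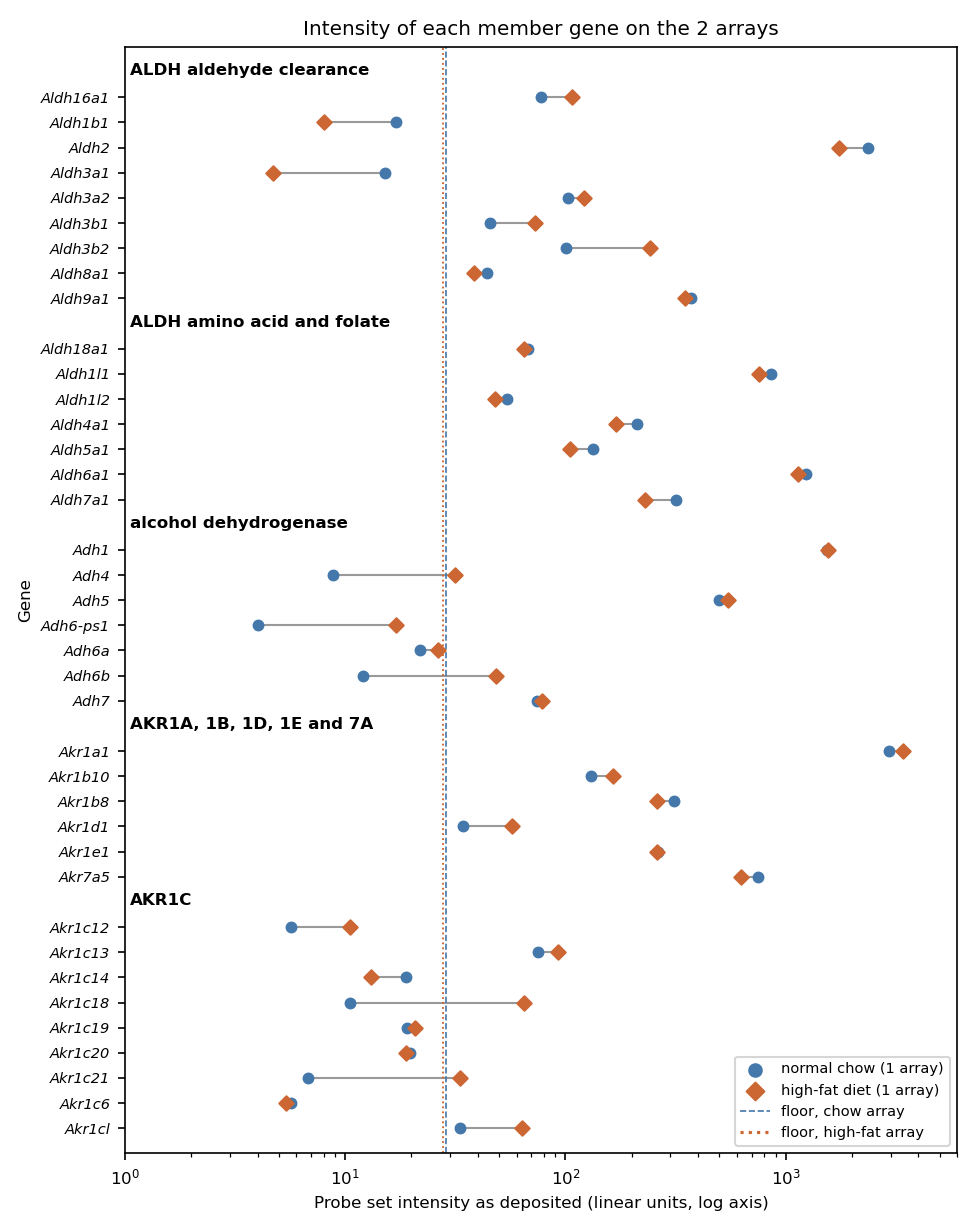
Intensity of the brightest probe set of each of the 38 member genes on the chow array (circles) and the high-fat array (diamonds), on a log axis in linear intensity units, with the floor of each array as a vertical line. Akr1c18, Adh6b, Akr1c21 and Adh4 cross the floor from below, Aldh3b2 has the widest gap among genes above both floors, and the marks of the bright genes nearly overlap.

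The aldehyde dehydrogenases that clear fatty and other reactive aldehydes went both ways. Aldh3b2, whose product oxidises long-chain aldehydes and has been located on lipid droplets, went from an intensity of 100.7 to 242.4. It was 2.41-fold higher, in its only single-gene probe set. A weaker probe set annotated to both Aldh3b2 and Aldh3b3 went the other way, from 55.3 to 44.7, a difference of -0.31 log2 units. Of the 3069 genes within 0.5 log2 units of its mean intensity, 11 (0.358%, Aldh3b2 among them) were as far higher. Aldh3b1, the related enzyme of cell membranes, was at 45.5 and 73.1, or 1.61-fold higher, and 5.23% of genes of like intensity were as far higher. Aldh3a2, the fatty aldehyde dehydrogenase of the endoplasmic reticulum, was at 102.7 and 122.1, a difference of 0.25 log2 units that lies inside the probe error. Aldh3a1, which protects the cornea from aldehydes, stayed under both floors at 15.2 and 4.7.

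Aldh2, the mitochondrial enzyme that removes acetaldehyde and lipid-derived aldehydes, went the other way and had a strong signal. Its main probe set was at 2372.7 on chow and 1753.4 on high fat, 1.35-fold lower. Bright genes varied little, and of 248 genes of like intensity 5 (2.02%, Aldh2 among them) were as far lower. The 4 other probe sets of Aldh2 were weak, between 35.9 and 109.8. Their differences were -0.83, -0.81, -0.19 and 0.29, so 4 of its 5 probe sets were lower. Aldh1b1, a mitochondrial relative of Aldh2, stayed under both floors at 17 and 8.

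The other measured genes of this group are less directly tied to lipid aldehydes. Aldh9a1, which acts in carnitine synthesis, was at 373.5 and 350 in its brightest probe set and at 367.2 and 296 in the other, with differences of -0.094 and -0.31. Aldh8a1, an enzyme of tryptophan breakdown, was weak at 44.1 and 38.5. For Aldh16a1, an atypical member of the family, the direction depended on the probe set. The brighter was at 77.2 and 107.5, a difference of 0.48, and the other was at 81.7 and 78.6, a difference of -0.056.

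All 7 aldehyde dehydrogenases of amino acid and folate metabolism were measured on both arrays, and all 7 were lower on the high-fat array by small amounts. Over all genes above the floor on both arrays 52.9% were lower. The differences of the 7 ran from -0.47 to -0.052 log2 units with a median of -0.19, and none reached 1.5-fold. All 7 were also lower under the 4 other scalings or centrings, whereas taking the probe set of smallest difference left 6 of 7 lower. Most single differences were near or under the probe error. The list was drawn up with other results of these arrays known, and its genes share the same 2 samples.

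The largest of these differences was that of Aldh7a1, an enzyme of lysine breakdown, at 318.4 on chow and 230 on high fat, 1.38-fold lower. Its other measured probe set went from 26.5, below the floor, to 31.5, so its direction depended on the probe set. Aldh5a1, which finishes the breakdown of the transmitter GABA, was at 133.3 and 104.7, 1.27-fold lower. Aldh4a1, the last step of proline breakdown, was at 211.8 and 169.8, 1.25-fold lower. Both were represented by 1 probe set.

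Folate and valine enzymes were lower by less. Aldh1l1, the cytosolic enzyme that oxidises formyl-folate, was at 862 and 756.6, and its other probe set went from 36.5 to 14.9, below the floor. Its mitochondrial relative Aldh1l2 was at 54.3 and 47.8. Aldh6a1, an enzyme of valine breakdown, was at 1242.9 and 1142.8, 1.09-fold lower. Aldh18a1, which starts proline synthesis, was at 67.5 and 65.1 in the probe set chosen. Of its 5 probe sets 4 were lower and 1 higher, with differences from -0.92 to 0.41, and 4 of the 5 are of the kind marked as open to cross-hybridisation.

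**Figure D2:**
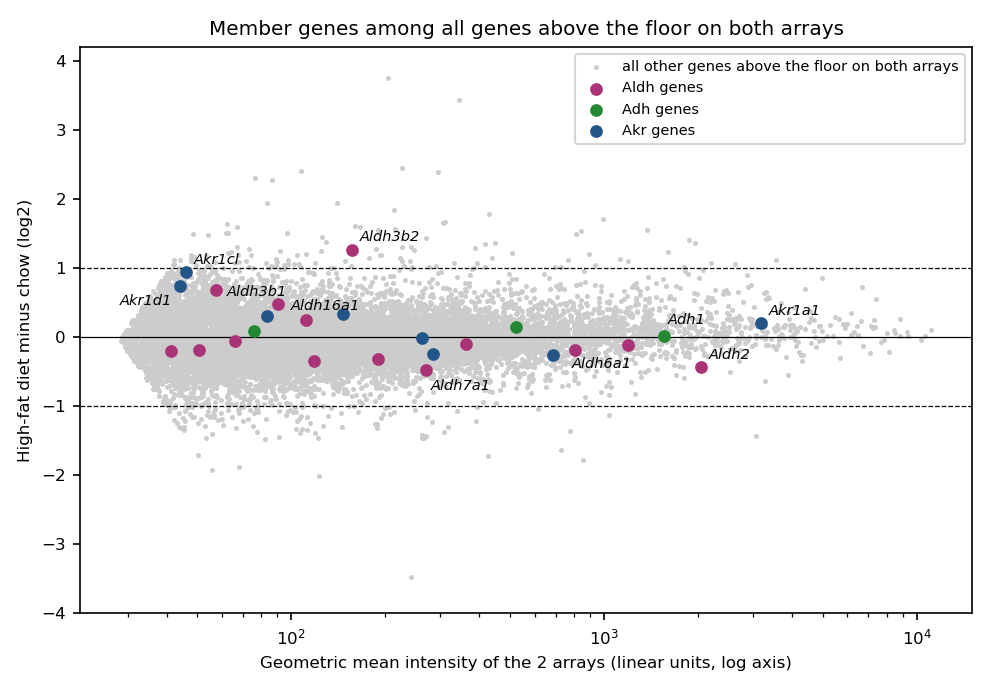
Difference between the diets (log2, high-fat minus chow) against the geometric mean intensity of both arrays for all genes above the floor on both (grey) and for the 25 members among them (colours by family), with dashed lines at 2-fold. Aldh3b2 is the member beyond the upper line, Akr1cl lies just under it, and Aldh2 is the bright member farthest below 0.

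Alcohol dehydrogenases were close to level between the diets wherever both arrays measured them. Adh1, the classical ethanol and retinol dehydrogenase, was at 1546.7 on chow and 1557.8 on high fat. Its difference of 0.010 turned below 0 under quantile normalization, lowess centring and centring on reference genes. Adh7, a retinol-active enzyme of epithelia, was at 74 and 78.6. Adh5, which removes formaldehyde bound to glutathione, was at 496.8 and 550.1, a difference of 0.15. The other probe set of Adh5 disagreed: it went from 52.9 to 17.6, below the floor, at least 1.90-fold lower. The alternative with plain probe sets drops the brighter one. There Adh5 rests on this weak probe set alone, with a bound of -0.92 log2 units.

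The remaining alcohol dehydrogenases were near or below the floor. Adh6b was below the floor on chow at 12.1 and reached 48.2 on high fat, at least 1.69-fold higher. Adh4 went from 8.8, below the floor, to 31.4, just above it, at least 1.10-fold higher. Adh6a, at 21.8 and 26.5, and the pseudogene Adh6-ps1, at 4 and 17, stayed below the floor on both arrays. The 7 genes lie side by side in the RefSeq gene order, and whether probes of such close relatives share signal was not tested.

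Aldo-keto reductases of general carbonyl metabolism included Akr1a1, which had a strong signal on both arrays. Its product reduces aldehydes and makes ascorbate in mice. The 4 probe sets of Akr1a1 gave 1 direction. They were at 2962.4, 1799, 1821.4 and 1688.2 on chow and at 3396.6, 1904.9, 2072.2 and 1894 on high fat. The differences of 0.20, 0.083, 0.19 and 0.17 were within the probe error of 0.20 for genes of 400 or more. Akr7a5, which reduces succinic semialdehyde, was at 748 and 627.3, or 1.19-fold lower, and its other measured probe set differed by -0.11. The brighter Akr7a5 probe set and some of those of Akr1a1 are of the kind marked as open to cross-hybridisation. Akr1e1, a reductase of anhydrofructose, was level at 263.6 and 260.

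The Akr1b relatives of aldose reductase, which reduces glucose to sorbitol, were split. Akr1b10 was at 130.4 and 164.7, 1.26-fold higher, and Akr1b8 at 310.1 and 261.8, 1.18-fold lower. Akr1d1, known from liver as a reductase in steroid hormone breakdown and bile acid synthesis, was weak at 34.3 on chow and 57 on high fat. It was 1.66-fold higher, and 4.45% of genes of like intensity were as far higher. Its second probe set was below the floor at 8 and 6.3. Akr1b3 and Akr1b7 were not analysed here.

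The Akr1c group, which acts on steroid hormones and prostaglandins, gave weak signals. Of 9 genes, 2 lay above both floors, 2 above that of the high-fat array only and 5 above neither. Akr1cl was at 33.3 on chow and 63.7 on high fat. This is 1.91-fold higher, and of 2782 genes of like intensity 35 (1.26%) were as far higher. Its other probe set was below the floor at 2.5 and 1.3. Akr1c13 was at 74.9 and 93, 1.24-fold higher.

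Akr1c18, which inactivates progesterone, had the largest bound among the members. It was below the floor on chow at 10.5 and at 64.7 on high fat, at least 2.26-fold higher, in its only probe set. Akr1c21 went from 6.8 to 33.1, at least 1.16-fold higher. The genes below the floor were Akr1c6 at 5.7 and 5.4, Akr1c12 at 5.7 and 10.5, Akr1c14 at 18.8 and 13.1, Akr1c19 at 19 and 20.7, and Akr1c20 at 19.7 and 18.8. The Akr1c genes other than Akr1cl stand next to each other and to Akr1e1 in the RefSeq gene order. At the main floor Akr1c18 and Akr1c21 could only be higher, so a shared direction rests on Akr1c13 and Akr1cl. With the floor at the 20th percentile 8 of the 9 were measured and 2 of them were lower, so that direction did not extend to all the weaker ones.

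Promoter sequences are shown for Akr1c18, Akr1cl and Aldh3b1, which were higher by 1.5-fold or more, and for Aldh9a1, which differed little but carries the same motif as Akr1cl. They are the 250 bases before the annotated gene start, from RefSeq on GRCm38.p6, read along the gene's own strand. Capitals mark the core of the antioxidant response element, the letters TGACNNNGC bound by NRF2, and the GC box GGGCGG, both searched on either strand. No promoter was held for Aldh3b2.

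The windows are chr13:4150647-4150896 (minus strand) for Akr1c18, chr1:65032760-65033009 (minus strand) for Akr1cl, chr19:3929779-3930028 (minus strand) for Aldh3b1 and chr1:167349741-167349990 (plus strand) for Aldh9a1.
Akr1c18: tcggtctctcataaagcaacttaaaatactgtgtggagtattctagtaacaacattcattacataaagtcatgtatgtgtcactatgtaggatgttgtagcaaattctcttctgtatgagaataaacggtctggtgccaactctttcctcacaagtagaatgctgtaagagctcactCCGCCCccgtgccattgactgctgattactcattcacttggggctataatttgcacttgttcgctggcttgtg
Akr1cl: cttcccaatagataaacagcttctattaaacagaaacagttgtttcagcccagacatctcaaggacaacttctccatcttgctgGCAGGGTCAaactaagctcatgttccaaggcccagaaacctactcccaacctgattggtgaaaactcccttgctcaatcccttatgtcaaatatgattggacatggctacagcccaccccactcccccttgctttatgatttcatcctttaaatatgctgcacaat
Aldh3b1: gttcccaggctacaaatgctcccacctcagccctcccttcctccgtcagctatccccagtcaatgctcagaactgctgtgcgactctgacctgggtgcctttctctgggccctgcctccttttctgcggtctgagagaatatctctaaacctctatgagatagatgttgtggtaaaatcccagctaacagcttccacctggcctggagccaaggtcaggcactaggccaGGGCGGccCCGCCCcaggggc
Aldh9a1: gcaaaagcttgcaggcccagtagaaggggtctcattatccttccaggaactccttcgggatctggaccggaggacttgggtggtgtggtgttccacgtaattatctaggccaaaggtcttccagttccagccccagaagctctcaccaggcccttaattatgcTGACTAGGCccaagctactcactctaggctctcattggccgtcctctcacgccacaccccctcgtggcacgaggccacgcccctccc

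Akr1cl holds the response element core 166 to 158 bases before its start, on the opposite strand, and Aldh9a1 holds it 87 to 79 bases before its start. Akr1c18 has 1 GC box, and Aldh3b1 has 2, which do not overlap. Of the 38 member genes 30 had a promoter window of 250 bases before to 50 after the start. The response element core was in the windows of 4 of these genes (Adh6a, Akr1c19, Akr1cl and Aldh9a1), against 12.4% of all 32851 windows. The GC box was in those of 11 genes, against 35.7% of all windows. The first motif was thus held by a gene that was higher, by one that differed by -0.094 and by a pair below the floor on both arrays. A match is a run of letters and does not show that a factor binds.

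Probe sets of the same gene did not always share a direction. Of 11 members with several measured probe sets, 5 had probe sets of both directions: Adh5, Aldh16a1, Aldh18a1, Aldh2 and Aldh7a1. That is 45.5%, against 53.2% of the 6077 genes of the array with several measured probe sets. The 18 members with 1 measured probe set, which include all 4 genes above the floor on both arrays and past 1.5-fold, have no such check among single-gene probe sets.

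**Figure D3:**
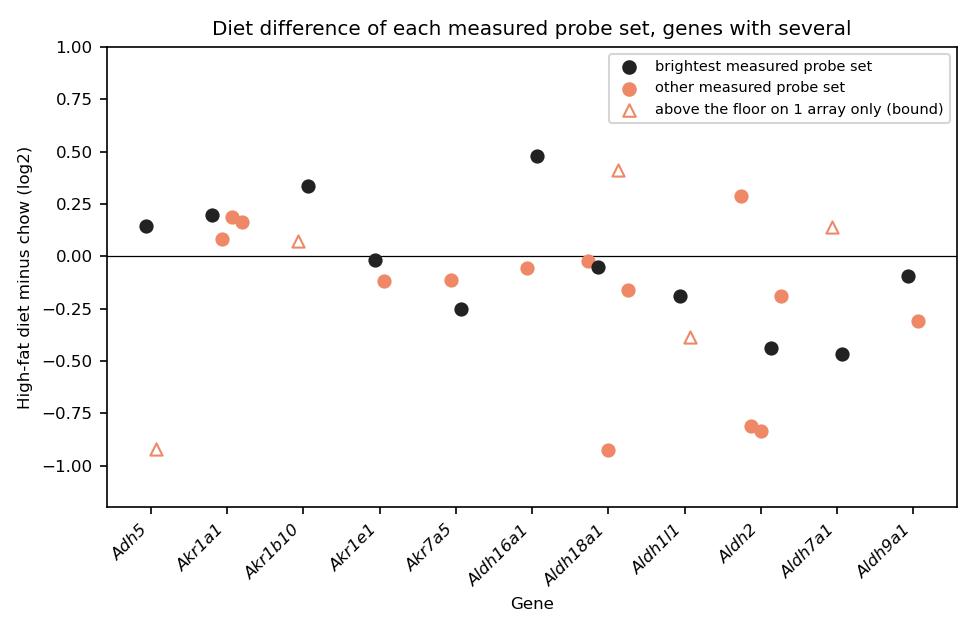
Difference between the diets (log2, high-fat minus chow) of every measured probe set for the 11 members with several, the brightest in black and the others in orange, with open triangles for bounds. Akr1a1 has 4 probe sets on the same side of 0, whereas Aldh2, Aldh18a1, Adh5, Aldh16a1 and Aldh7a1 have probe sets on both sides.

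Enzymes that supply or share substrates with the members, and targets and regulators of NRF2, were compared through 4 lists. All of these are called partner genes below. Of them 74 were measured and 70 lay above the floor on both arrays. Over the 74, 2 were 1.5-fold or more higher, against 5.82% of all measured genes, and 9 were 1.5-fold or more lower, against 6.4%. In 2-fold terms 0 were higher, against 1.17%, and 2 were lower, against 1.35%.

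The partners of the amino acid and folate enzymes included 14 lower genes of 21 above the floor on both arrays, against 52.9% of all such genes, with a median of -0.18. Prodh, which feeds the proline route that Aldh4a1 completes, was at 434.2 on chow and 158.5 on high fat. With its single measured probe set it was 2.74-fold lower, a wider gap than the 1.25-fold of Aldh4a1. Mthfd1, a folate enzyme that makes the substrate of Aldh1l1, was at 258.5 and 141.6, 1.83-fold lower, though its other probe sets differed by -0.30 and 0.12. The other genes of this list were within 1.5-fold.

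Other carbonyl and aldehyde enzymes were balanced, with 14 higher and 13 lower above the floor on both arrays and a median of 0.030. Maob, a mitochondrial amine oxidase whose products are aldehydes, was at 727.1 and 439.9, 1.65-fold lower. Gsta4, which joins hydroxynonenal to glutathione, was at 179.6 and 113.8, 1.58-fold lower. The carbonyl reductase Cbr3 was at 155.3 and 101.1, 1.54-fold lower. Ptgr1, a reductase of prostaglandins and unsaturated aldehydes, was at 100.2 and 152.4, 1.52-fold higher. Far2, which makes fatty alcohols, went from 22.7, below the floor, to 43.4, at least 1.52-fold higher.

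In the polyol and fructose list, of only 5 measured genes, 4 were lower, against 52.9% of all genes, with a median of -0.31. Khk, which phosphorylates fructose, was at 152.3 and 90.7, 1.68-fold lower, and Tkfc, a later step, at 89.4 and 56.9, 1.57-fold lower. Sord, which follows aldose reductase, was not analysed here.

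NRF2 is a transcription factor that induces many carbonyl-reducing enzymes. Among 17 of its targets and regulators above the floor on both arrays 11 were lower, against 52.9% of all such genes, and 6 higher, with a median of -0.14. Gsta3, a glutathione transferase, was at 596.8 and 256.3, 2.33-fold lower, and its other probe set differed by -0.37. Tkt, of the pentose phosphate route, was at 4087.9 and 2622.7, 1.56-fold lower. Nqo1, a commonly used target, was at 74.8 and 52.1, and Nfe2l2, the gene of NRF2, at 630.7 and 570.6. Of the 6 higher genes Ephx1 had the largest difference, at 349.2 on chow and 462.2 on high fat, 1.32-fold higher.

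**Figure D4:**
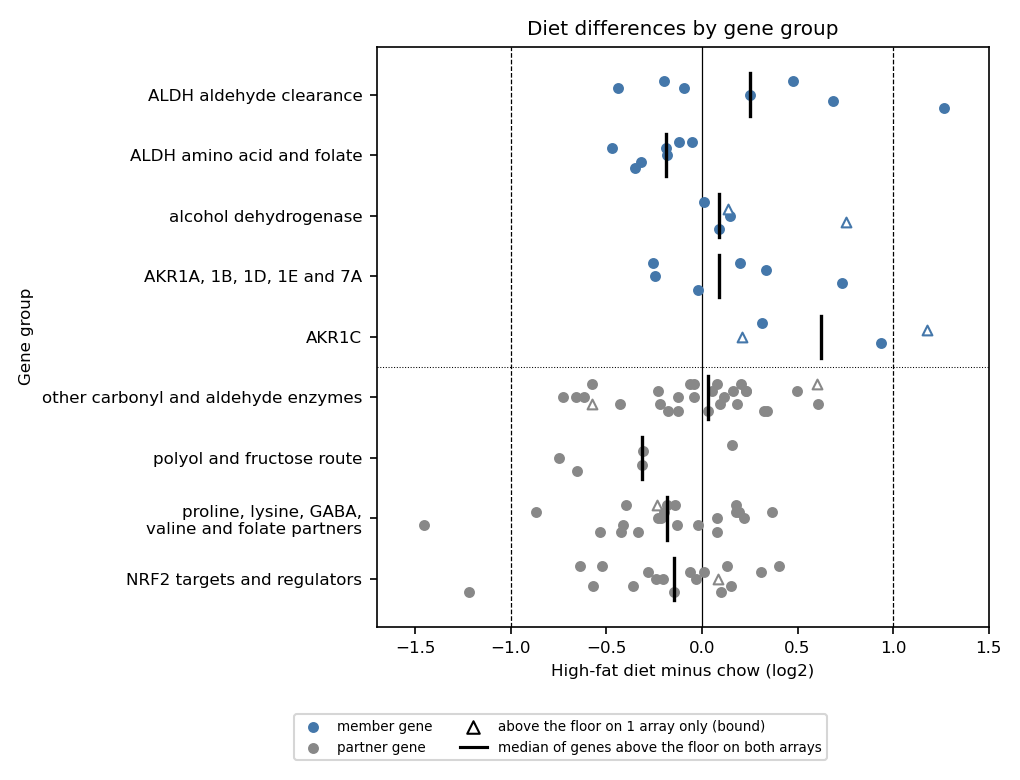
Difference between the diets (log2, high-fat minus chow) for each measured gene, by group, with members in blue, partner genes in grey, open triangles for bounds and a black bar at the median of the genes above the floor on both arrays. All 7 amino acid and folate aldehyde dehydrogenases lie left of 0, and Prodh and Gsta3 lie left of the lower 2-fold line.

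Values of the members were set beside markers of other cells of the fat pad and its surroundings. In a bulk sample fewer cells of a type and less RNA per cell cannot be told apart. Mesothelial markers, of the lining of the pad, were lower in 8 of 10 genes, against a background of 52.9%. Their summed intensities were 1925.3 on chow and 1423.3 on high fat. Of these 10, 5 were 1.5-fold or more lower, against 5.31% of all genes above the floor on both arrays. Among the 5 were Krt19 at 166.2 and 83.7 and Upk3b at 607.1 and 373.8. The 2 higher ones were Msln, at 73.9 and 101, and Krt8, at 159 and 201.3, with probe sets of both directions for Krt8. Of the 6 liver markers above the floor on both arrays 4 were lower, against 52.9% of all such genes. Ttr, 1 of the 6, was 2-fold or more lower, against 0.938%. Of 10 measured liver genes 8 were lower, but those that only the chow array placed above the floor could only be lower. Apoa2 went from 214.2 to 13.1, below the floor, at least 7.68-fold lower. Ttr went from 108.7 to 28.6, 3.80-fold lower, and Apoa1 from 83.5 to 18.3, below the floor, at least 2.99-fold lower. Alb, the gene of albumin, was at 141.5 and 121.5, and Fgb and Fgg were below the floor on both arrays. The 2 higher liver genes were Cps1, at 37.7 and 53.1, and Tat, at 33.2 and 40. The liver list summed to 9522.7 and 7897.6, most of it from Cyp2e1 at 8752.7 and 7561.1. Epididymis markers were near the floor: of 11 genes analysed here Lcn5, Lcn9, Cst11, Spint4 and Crisp4 were below it on both arrays, and the 6 measured ones summed to 247.8 and 228.4. Smooth muscle markers were split: Myh11 was at 133 and 63.2, 2.10-fold lower, and Tagln at 377.1 and 194.6, 1.94-fold lower, while Acta2 was at 1476.2 and 1866.2. Cnn1 and Lmod1 were below the floor. The sum of the 4 measured genes, 2048.7 and 2217.4, rests mostly on Acta2, and their median difference was -0.31.

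Fibroblast markers were higher in 7 of 9 genes, against 46.8% of all genes above the floor on both arrays, with a median of 0.25. That background also holds for the macrophage, endothelial and adipocyte counts below, whose genes all lay above both floors. The higher ones past 1.5-fold, against a background of 4.94%, were Mfap5 (1.89-fold), Col1a1 (1.67-fold) and Dpt (1.54-fold). Pdgfra was 1.58-fold lower in its brightest probe set, whereas its other measured probe set was higher. The fibroblast sum of 14612.5 and 16067.6 rests mostly on Dcn, lower at 6312 and 5096.7, and Col3a1, higher at 4303.6 and 5111.7. Macrophage markers were higher in 5 of 10 genes, all within 1.5-fold, and summed to 8882.4 and 9008.5. Endothelial markers were higher in 5 of 8, with Flt1 1.51-fold lower, and summed to 2036.7 and 2057.4. Adipocyte markers were higher in 8 of 12, Pnpla2 among them though level at 4720.2 and 4720.5, and summed to 59405 and 61856.2. Only Lep passed 1.5-fold, at 2001.2 on chow and 3099.8 on high fat, 1.55-fold higher. Of the lower ones Slc2a4 (1.42-fold) and Pparg (1.40-fold) differed most. The part of these cells in the differences of the members was not tested.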

How the data were processed

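Biotin-labelled cRNA from 10 µg of Trizol-extracted RNA was hybridised to an Affymetrix array for each diet, per the labels' protocols. Deposited values are linear intensities, a single one for each probe set. How the authors summarised and scaled them is not given in the sources used here. Trimming 2% from each end left a mean of 99.6 on either array, so a difference in total RNA content would not be seen. Whether very bright signals were compressed was not tested. No depth applies to arrays, and their number limits the precision.

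Gene symbols came from a 2016 annotation of the platform: 34945 had 1 symbol, 932 several and 9160 none. Of the first, 34741 matched RefSeq by gene ID, which changed 0 symbols. The floor, the choice of the brightest measured probe set (by mean log2 intensity), and sizes of 2-fold and 1.5-fold follow the report. Differences were taken as high fat minus chow, on log2 values computed from the deposited intensities. No test was made. The scripts were tested on simulated data. Python 3.11.15, pandas 2.3.3, numpy 2.4.6, scipy 1.17.1, statsmodels 0.14.6 and matplotlib 3.10.9 were used.

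The members and lists were chosen with earlier results of these data known. Every member was to be named, with both array values for those past 1.5-fold, those with probe sets of both directions and the 5 brightest, and values of other members were added. Partner genes were to be named past 1.5-fold, at most 5 a list and direction. Nqo1, Nfe2l2, Ephx1 and the marker genes were added after their values were seen. The lists were other carbonyl and aldehyde enzymes, polyol and fructose route, amino acid and folate partners, NRF2 targets, reference genes and markers of adipocytes, macrophages, fibroblasts, endothelium, mesothelium, epididymis, liver and smooth muscle. The reference genes, used for centring, had 11 measured members with a median difference of 0.068. There were 10 alternatives: other floors (20th and 60th percentile), no filter with a pseudocount of 16, 4 other scalings or centrings, and 3 other choices of probe set.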

Additional observations from a re-analysis of the deposited data

How the results depend on the processing

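No paired analysis was possible because each diet has 1 array and no test was made. Of 220 comparisons of a count or median with its value under an alternative, 188 stayed within 1.5 times (counts) or 0.1 log2 units (medians). The medians of 2 member groups changed sign under some alternatives, as given below, and so did those of all genes and of the other carbonyl and aldehyde enzymes, both near 0. Aldh3b2 stayed 2-fold or more higher in all 10 alternatives (1.15 to 1.31 log2 units). With bounds included, 6 of the 29 measured members were higher by 1.5-fold or more (all genes 5.82%) and 2 by 2-fold or more (1.17%). In the other direction 0 were lower by 1.5-fold or more (6.4%). The 6 include Akr1c18 and Adh6b, which only the high-fat array placed above the floor. The height of the floor moved more of these results than the other choices did. With the floor at the 20th percentile, 37 members were measured. Of these 9 were higher by 1.5-fold or more (all genes 9.89%), 5 by 2-fold or more (3.66%), and 2 lower by 1.5-fold or more (10.6%). At the 60th, 1 of 23, Aldh3b2, passed 1.5-fold (all genes 3.65%) and 2-fold (0.839%) upward. With no filter, 4 of 38 were higher by 2-fold or more (all genes 1.36%) and 1 lower by 1.5-fold or more (6.46%). With plain probe sets Adh5 alone was that much lower (6.72%). Akr1c18 ranged from 0.10 to 2.62, Akr1cl from 0.082 to 0.97 and Aldh3b1 from 0.28 to 0.72.

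Over all genes, the floor at the 20th percentile gave 608 genes 2-fold or more higher, 727 lower, and 1644 and 1754 at 1.5-fold. At the 60th these were 90, 66, 391 and 425, and with no filter 247 were 2-fold or more higher. Centring on reference genes changed the split at 2-fold from 164 higher and 190 lower to 125 and 254, and at 1.5-fold from 819 and 900 to 624 and 1190. With the floor at the 60th percentile the 2-fold split of 90 and 66 leaned the other way.

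Group medians below run over all measured genes, bounds included. The aldehyde clearance group (0.25) had -0.094 with the floor at the 20th percentile, -0.090 with no filter, -0.056 with the probe set of smallest difference and 0.36 with plain probe sets. The amino acid and folate group (-0.19) had -0.32 with plain probe sets. It had 7 of 7 lower in 8 alternatives, 6 of 6 with the floor at the 60th percentile and 6 of 7 with the smallest difference. Alcohol dehydrogenases (0.13) had 0.28 with the floor at the 20th percentile. The Akr1a, 1b, 1d, 1e and 7a genes (0.089) had -0.020 with the floor at the 60th percentile and with plain probe sets. The Akr1c genes (0.62) had 0.22 and 0.10 with the floor at the 20th and 60th percentile and 0.26 with no filter. Among partners, 1 gene was 1.5-fold or more higher with the floor at the 60th percentile, and centring on reference genes gave 0 higher and 14 lower. The polyol and fructose list (-0.31) had -0.46 with the floor at the 60th percentile and -0.65 with plain probe sets. Where the floor moved a value, the number of genes measured moved with it. The cause of the other shifts was not tested.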

Other observations

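The 3 probe sets annotated to more than 1 gene of these families were in no count. The probe set shared by Akr1c12 and Akr1c13 was at 142.2 on chow and 191.8 on high fat, a difference of 0.43 log2 units, beside 0.31 for the probe set of Akr1c13 alone. Besides the one given with Aldh3b2, a second probe set shared by Aldh3b2 and Aldh3b3 stayed under both floors, at 26.9 and 25.8. Which transcripts the shared probe sets detect in this tissue cannot be told from these arrays.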
